A study of Drosophila melanogaster with 3 samples.

Results

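The bithorax complex of Drosophila melanogaster holds the 3 Hox genes of the posterior thorax and abdomen, Ubx, abd-A and Abd-B, together with the regulatory and boundary DNA between them. Binding of Insensitive across this locus was read from region lists of chromatin immunoprecipitation followed by sequencing (ChIP-seq). The regions were chosen by position, as every region of 5 lists that overlapped 3R 16640000 to 16980000 of the dm6 assembly. The window was picked with the peak calls of these lists in view, so the number of peaks in it is a description and was given no test. It held 8 of the 732 peaks that passed the authors' reproducibility threshold and 86 of the 30000 regions of the pooled list. Of the 30000 regions listed for each replicate, it held 105, 111 and 102 for replicates 1, 2 and 3. The pooled list is labelled as holding background as well as peaks, so a region far down it need not be a binding site.

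All libraries came from mixed-sex embryos collected over 0 to 24 hours from a line stably expressing insv with GFP at its C terminus, and an antibody against GFP was used for the precipitation. The 3 samples are biological replicates of this 1 group per the labels, and nothing says whether they came from separate embryo collections. There is no second condition, and the labels do not say which promoter drives the fusion. Whole embryos mix all segments and tissues, so cells in which a Hox gene is active cannot be told apart from cells in which it is silent.

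As background, Hox genes encode homeodomain transcription factors that give segments their identity along the body axis. Ubx specifies the third thoracic and first abdominal segments, abd-A the middle abdomen, and Abd-B the posterior abdomen. Their expression is set by arrays of segment-specific enhancers, named iab domains in the abdominal part, which are kept apart by boundary elements such as Fub, Mcp and the Fab series. Polycomb and Trithorax group proteins maintain the resulting states. Insensitive is a BEN-domain protein that binds the palindrome CCAATTGG and acts as a co-repressor. The related Elba complex binds the asymmetric site CCAATAAG and was identified through a Fab boundary of this locus. The annotation used here lists genes and transcripts but no boundary elements, so peaks were placed against genes and none was assigned to a named boundary.

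The window contained 6 copies of CCAATTGG on 3R, and they are shown because copies with the same 8 bases lay at very different places in the lists. Each is given 5′ to 3′ on the plus strand of dm6 with 10 bases to each side, and capitals mark the palindrome, which reads the same on both strands.
Intron site of Ubx, chr3R:16691308-16691335: ttttatttcaCCAATTGGtaggcaattt
Site in the bxd RNA gene, chr3R:16751807-16751834: aacttgccctCCAATTGGatctgaatgc
Site between bxd and abd-A, chr3R:16779705-16779732: tgcagaatggCCAATTGGatgagcaaaa
Site under the strongest peak, chr3R:16898568-16898595: ggacgcatttCCAATTGGgaaagaaacc
Site beside the strongest peak, chr3R:16899241-16899268: accgcaaaatCCAATTGGaagagagcga
Site in an Abd-B intron, chr3R:16962521-16962548: cccgcgtcggCCAATTGGgcaaactgca
The fourth of these was covered by a region of every list, at rank 34 by signal in the pooled list and ranks 45, 31 and 37 in replicates 1, 2 and 3. The fifth was covered whole by a region of replicate 2 at rank 150, and replicate 3's region at rank 79 began on its last base. The site in Ubx was covered by no region of any list. The bxd site was covered in replicate 1 alone, at rank 14157, and the site in Abd-B in the pooled list at rank 20962 and in replicate 3 at rank 11943. The site between bxd and abd-A was covered at pooled rank 23682 and at rank 17844 in replicate 2. Thus 1 of 6 copies was inside a thresholded peak and 3 of 6 inside a pooled region, while over all arms 4.22% of 2939 copies were inside a thresholded peak and 15.4% inside a pooled region.

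The thresholded peaks were unevenly placed along the locus. Ubx held 2 of them, the stretch between abd-A and Abd-B held 6, and neither abd-A, Abd-B nor the stretch between Ubx and abd-A held any. The 8 peaks in 340.001 kb gave 23.5 per Mb, against 5.47 per Mb over the 6 chromosome arms, a ratio of 4.30. Those of ranks 34 and 524 overlap, with summits 202 bp apart, and 7 remain when summits within 500 bp are counted once. The density and tile counts take each peak separately, in the window and over the arms. When the arms were divided from their ends into 391 tiles as long as the window, the median tile held 1 thresholded summit, the fullest held 10, and 5 tiles (1.28%) held at least 8. Of these 5, 1 is the tile of the complex itself, which contained all 8 peaks of the window and a ninth summit beyond it, so 4 of the 389 tiles that do not overlap the window held at least 8. The wider lists were less concentrated. The pooled list had 253 regions per Mb in the window and 224 per Mb over the arms, a ratio of 1.13, and the replicate lists had 106 ± 4.58 regions in the window (SD, n = 3), with ratios of 1.38, 1.46 and 1.34. The thresholded peaks were thus 9.30% of the pooled regions of the window, where 2.44% of all pooled regions are thresholded. By tile, the median was 81 pooled summits, and 176 of the 391 tiles (45.0%) held at least the 86 of the window. The arms include long stretches with almost no pooled regions. These lower the pooled and thresholded densities over the arms and so raise the ratios.

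**Figure D1:**
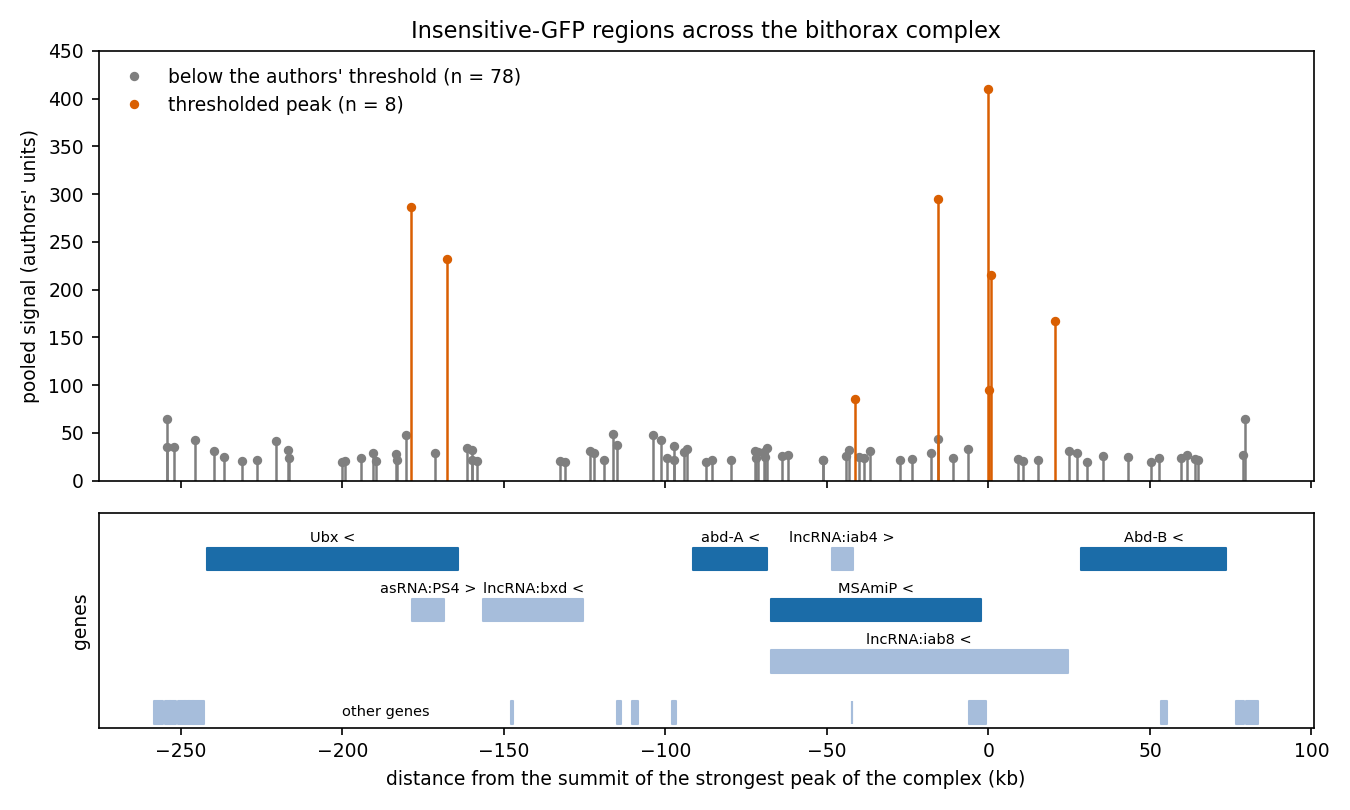
Signal of the 86 pooled regions in the window (vertical axis, the authors' units) against distance of their summits from the summit of the strongest peak (horizontal axis, kb), with annotated genes below and an arrow for the direction of transcription. The 8 thresholded peaks (orange) lie at 2 places in Ubx and along the stretch between abd-A and Abd-B, and the 78 other regions (grey) have signals of 64.9 or less.

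**Figure D2:**
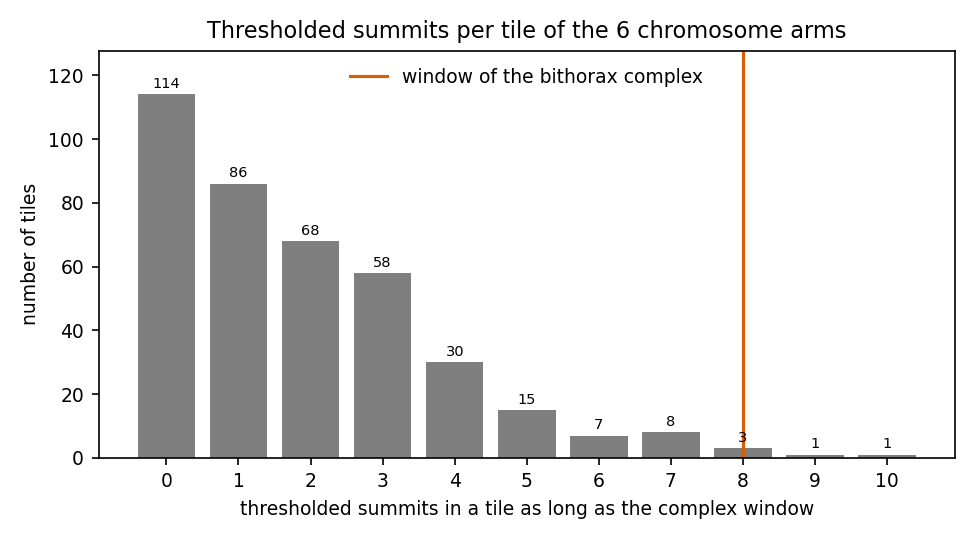
Number of tiles (vertical axis) by the count of thresholded summits they hold (horizontal axis), for 391 tiles of the 6 chromosome arms as long as the window. The window, marked by the line at 8 summits, holds more than all but 5 tiles, of which 1 (with 9 summits) covers the same 8 peaks and 4 lie elsewhere, since the tile borders do not line up with those of the window.

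The strongest peak of the complex, at 3R 16898435 to 16898716, had a pooled signal of 409.8 and rank 34 of 30000. Its summit, at 16898582, lay in an intron of lncRNA:iab8 (FBgn0264857, 3R 16831116 to 16923231, minus strand), the long non-coding RNA of the abdominal region that begins downstream of Abd-B, ends just upstream of abd-A and carries mir-iab-8. The summit was 1250 bp downstream of the nearest start, one of lncRNA:iab8. It was also 2289 bp upstream of the start of MSAmiP (FBgn0288835, 3R 16831115 to 16896293, minus strand). The annotation gives MSAmiP as protein coding and names it for a micropeptide of the male-specific abdominal transcript. In the replicates, the region with the nearest summit ranked 45, 31 and 37, with signals of 160.3, 150.6 and 104.3 on each list's own scale. The replicate summits lay within 26 bp of each other (SD 13.1 bp, n = 3). The middle of the palindrome was 0.5 bp from the pooled summit. The 121 bases centred on that summit, chr3R:16898522-16898642 on the plus strand of dm6, are shown with the palindrome in capitals because this is the only thresholded summit of the complex with either site within 100 bp.
Summit window of the strongest peak: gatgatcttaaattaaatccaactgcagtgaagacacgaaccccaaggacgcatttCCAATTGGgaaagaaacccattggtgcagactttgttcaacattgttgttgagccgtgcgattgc

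A further pair of thresholded peaks lay within 1 kb of this summit. The nearer, at 3R 16898576 to 16898991 with a signal of 95.1 and rank 524, overlaps the strongest peak and has its summit 202 bp from it, so they share replicate regions. Replicates 1 and 2 each listed a separate region there, at ranks 302 and 444, and replicate 3 listed none beyond the region at rank 37 that lies under the strongest peak. The other, at 3R 16899457 to 16899560, had a signal of 215.1 and rank 145, and its replicate regions ranked 248, 150 and 79. Its summit was 306 bp downstream of an annotated start of lncRNA:iab8. The summits of those replicate regions spread over 106 bp (SD 56.7 bp), which is wider than at the strongest peak. The Elba site CCAATAAG had 12 copies in the window, and only the copy here was covered by a region among the 1000 strongest of any replicate.
Elba site near the strongest peak, chr3R:16898979-16899006, plus strand, capitals mark CCAATAAG: agtgcagcgcCCAATAAGcaaatggcag
That copy was covered by the regions at rank 302 of replicate 1 and rank 444 of replicate 2. It began inside the pooled peak of rank 524 and ran past its end, so neither the pooled nor the thresholded list covered it whole.

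**Figure D3:**
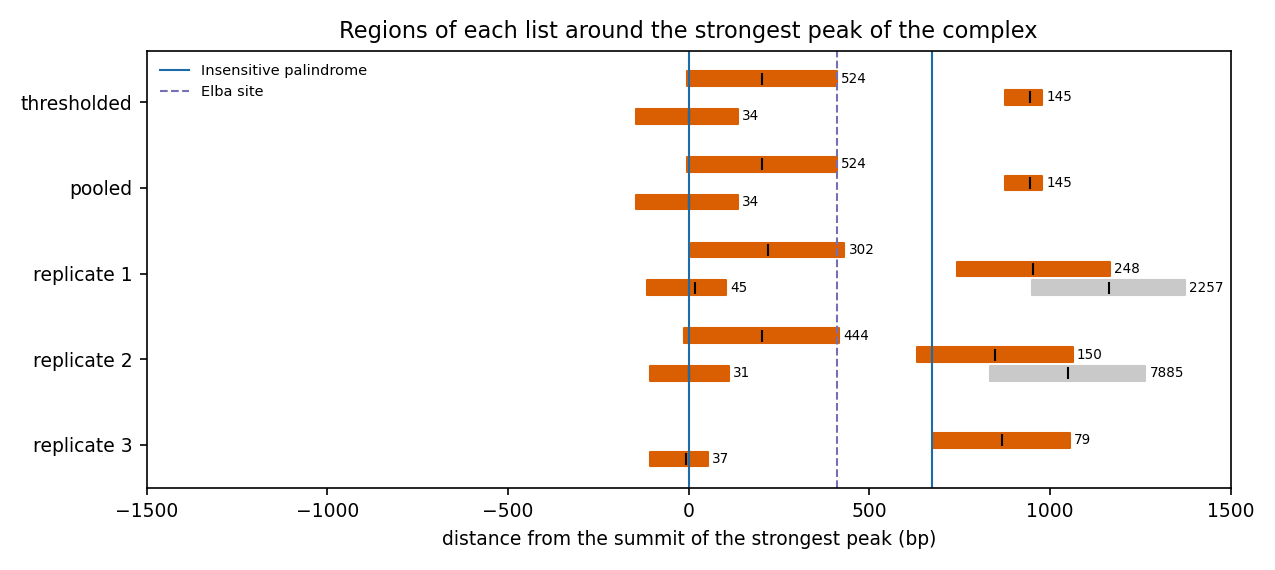
Regions of each list (bars, with summits as ticks and ranks beside them) against distance from the strongest summit (horizontal axis, bp), in orange for ranks up to 1000 and in grey for lower ones. The palindrome at 0.5 bp from the summit is covered in all 5 lists, the Elba site (dashed) by the regions at ranks 302 and 444, and the second palindrome by replicate 2 at rank 150.

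The second strongest peak of the complex lay 15735 bp from the strongest, toward abd-A, at 3R 16882840 to 16882981 inside introns of both MSAmiP and lncRNA:iab8. It had a signal of 295.3 and rank 81, with replicate ranks of 86, 70 and 106, the narrowest spread in rank among these peaks after the strongest (SD 18.0, n = 3). Its summit was 9116 bp downstream of the nearest start, one of lncRNA:iab8. Neither CCAATTGG nor CCAATAAG was found within 100 bp of its summit or anywhere in its region. The 61 bases around the summit, chr3R:16882817-16882877 on the plus strand, are shown as an example of a strong peak with neither site.
Summit window of the second peak: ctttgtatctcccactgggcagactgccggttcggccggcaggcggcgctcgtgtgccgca
The deposited summit lay at the edge of this narrow region, and the replicate summits spread over 84 bp, so the printed window is centred less surely than that of the strongest peak.

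On the Abd-B side, the peak at 3R 16918834 to 16919249 had a signal of 167.3 and rank 234, and its replicate ranks of 271, 239 and 222 were close. It lay in an intron of lncRNA:iab8, 4085 bp from the nearest start of that gene, in the stretch between abd-A and Abd-B, and it was the thresholded peak nearest to Abd-B. It was the only thresholded peak of the complex with a match to the CTCF motif AGNTGGCGC, where N is any base. CTCF is a zinc-finger insulator protein. The match lay 187 bp from the summit, and 2.87% of all thresholded peaks held this motif in their region. Of the 86 pooled regions of the window 5 (5.81%) held it, against 1.77% of all pooled regions. The match in this peak was covered by the regions of replicates 1 and 2, and that of replicate 3 ended before it.
CTCF motif match in this peak, chr3R:16919215-16919243, plus strand, with the motif in capitals as its reverse complement: ccgccttgcaGCGCCACCTggccttggta

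The weakest thresholded peak of the complex lay near the Hox microRNA genes. It was at 3R 16857041 to 16857456 in introns of MSAmiP and lncRNA:iab8, 907 bp upstream of the start of mir-iab-8, the microRNA of the iab8 transcript, whose gene coincides with that of mir-iab-4 on the other strand. Its pooled signal was 85.3 at rank 616. Replicates 2 and 3 listed it at ranks 473 and 503, but replicate 1 at rank 5241. This peak alone among the 8 was not overlapped by one of the 1000 strongest regions of every replicate, since replicate 1 listed it lower. The peak of rank 524 met that rule in replicate 3 only through the region at rank 37 under the strongest peak. The lowest signal of the whole thresholded list was 75.0 at rank 732. The next region of the window below it, at a gene beside Abd-B, had a signal of 64.9 at rank 946, and the next in or between the Hox genes had one of 49.1 at rank 1847.

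Ubx (FBgn0003944, 3R 16656623 to 16734426, minus strand) held both remaining peaks, in its introns. The stronger, at 3R 16719754 to 16719894, had a signal of 286.5 and rank 88, and replicate ranks of 87, 140 and 73. Its summit was 313 bp upstream of the start of asRNA:PS4 (FBgn0288728, 3R 16720127 to 16729959, plus strand), a non-coding gene antisense to Ubx. The other, at 3R 16730799 to 16730976, was 3502 bp downstream of the Ubx start and had a signal of 232.2 and rank 131, with replicate ranks of 181, 210 and 66. Replicate 3 placed this second peak above the first, whereas the pooled list and replicates 1 and 2 placed it below. The replicate summits spread over 21 bp at the peak beside asRNA:PS4 (SD 10.8 bp) and over 78 bp at the other (SD 39.0 bp). Neither peak held CCAATTGG or CCAATAAG in its region, and Ubx contained 1 palindrome in all, the one shown above that no list covered.

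**Figure D4:**
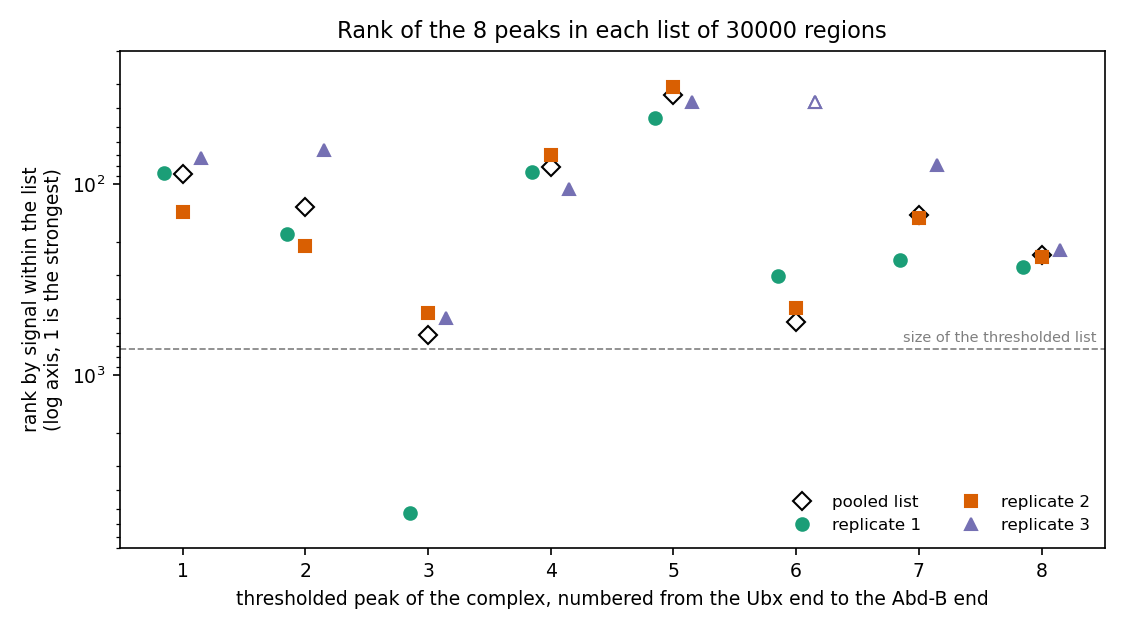
Rank by signal (vertical axis, log scale, strongest at the top) of the 8 thresholded peaks, numbered from the Ubx end (horizontal axis), in the pooled list and in each replicate. The open triangle of replicate 3 at the sixth peak is the region already plotted at the fifth, and the third peak, near mir-iab-8, falls to rank 5241 in replicate 1.

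Some starts of the Hox genes had a weak region nearby, and others had no pooled summit within 500 bp. The single annotated start of Ubx had its nearest pooled summit 2775 bp upstream, at rank 5802. The abd-A gene (FBgn0000014, 3R 16807214 to 16830049, minus strand) had 3 starts, and a region at 3R 16829670 to 16830085 lay over 2 of them with a signal of 34.2 and rank 5949. That region overlapped regions at ranks 9429 and 9362 of replicates 1 and 2 and none of replicate 3. Abd-B (FBgn0000015, 3R 16927212 to 16972236, minus strand) had 6 starts, of which 3 had a pooled summit within 500 bp. The best of its regions ranked 12606 with a signal of 27.1, close to the median of 25.5 over the pooled list, and it was 87 bp downstream of a start. The nearest thresholded summit was 27200 bp from abd-A starts and 15200 bp from Abd-B starts at the closest. Of the 11 starts of Ubx, abd-A, Abd-B and MSAmiP, 5 had a pooled summit within 500 bp, against 33.6% of 19607 starts of protein-coding genes, and none a thresholded summit, against 3.01%. A count of 0 of 11 is near that background.

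The thresholded summits lay mostly away from starts, which is given as counts beside those of the whole list, with no test. All 8 thresholded summits were intronic, against 48.6% of all thresholded summits, and 2 of 8 were within 500 bp of a transcript start of any gene, against 59.3%. Both starts belonged to non-coding genes, asRNA:PS4 and lncRNA:iab8. Of the 16 protein-coding genes in the window, 0 had a thresholded summit within 1000 bp of a start. That is near the background of 4.38% of all protein-coding genes. Among the 86 pooled regions 16 (18.6%) were within 500 bp of a start, against 22.2% of all pooled regions, which is near the background. By class, 51 of the 86 (59.3%) were intronic, against 37.6% of all pooled regions, and 6 (6.98%) in coding exons, against 32.1%. A further 16 (18.6%) were intergenic, against 20.04%, 6 were in non-coding exons, against 2.07%, 6 in 5′ UTRs, against 4.69%, and 1 in a 3′ UTR, against 3.47%. Class depends on how the window is annotated. Of the thresholded summits, 6 lay in lncRNA:iab8, which is 92.1 kb long in a stretch of 97.2 kb between abd-A and Abd-B. The other 2 lay in Ubx, which is 77.8 kb long. The share of the window that is intron was not measured, so the class shares are not adjusted for it. In shape, the peaks were of 2 kinds, wide ones with a central summit and narrow ones without. The summit was more than 1 bp off the middle of the region in 5 of 8, the narrow ones of 104 to 282 bp, against 16.3% of all thresholded peaks, whose median width was 416 bp. These 5 were also the strongest of the 8, at ranks 34 to 145, and the wide ones the weakest, at ranks 234 to 616. Whether shape goes with signal over the whole list was not tested.

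Pooled regions lay in every part of the locus, those without a thresholded peak included. Their density was 231 per Mb in Ubx, 247 between Ubx and abd-A, 394 in abd-A, 268 between abd-A and Abd-B and 200 in Abd-B. The best rank was 1847 between Ubx and abd-A, 5949 in abd-A and 12606 in Abd-B, so abd-A and Abd-B held only regions far down the list. The region at rank 1847, at 3R 16782223 to 16782638, was intergenic with a signal of 49.1, and its replicate ranks of 1514, 6368 and 12935 were far apart. A region in Ubx at rank 1955, 1824 bp upstream of asRNA:PS4, was listed in replicates 1 and 3 at ranks 1510 and 20034 and not in replicate 2. lncRNA:bxd, the non-coding RNA gene of the bithoraxoid regulatory region, had 2 pooled summits inside it, the better at rank 25801.

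The strongest pooled regions of the window below the threshold, a pair, lay at genes flanking the complex and not in it. The region at 3R 16977900 to 16978315, of rank 946 and signal 64.9, was between Actn3, an alpha-actinin gene, and AhcyL2, 313 bp upstream of the Actn3 start. It was listed in replicate 3 at rank 271 and in replicate 2 at rank 1101, and not in replicate 1. The region at 3R 16643973 to 16644388, of rank 947, was in a coding exon of Arl6IP1, and its replicate ranks were 3505, 5260 and 530. Replicate 3 therefore listed both among its 1000 strongest regions and had 9 such regions in the window, against 7 in replicate 1 and 8 in replicate 2.

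Recovery in the replicates was counted with their 1000 strongest regions. Of the 86 pooled regions 8 (9.30%) were overlapped by such a region in every replicate, against 1.97% of all pooled regions, and of the 8 thresholded peaks 7 were, against 65.4% of all thresholded peaks. The pool was made from these replicates, so this is not independent of the choice of peaks. The eighth region recovered was one of pooled rank 2755 that overlaps the second strongest peak and shares its replicate regions. Of the 7, the peak of rank 524 counts in replicate 3 only through the region at rank 37, which it shares with the strongest peak. Both counts thus include places counted more than once. With all 30000 regions of each replicate, 18 of the 86 (20.9%) were overlapped in all 3, a share close to the 21.1% of all pooled regions. In the 78 regions below the threshold it was 10 (12.8%), against 19.1% of all such regions.

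The sites known for BEN-domain proteins lay at few summits of the locus. Of the 86 regions 1, the strongest peak, had CCAATTGG within 100 bp of its summit, against 0.95% of all pooled regions, and 1 of 8 thresholded peaks had it, against 13.4% of all thresholded peaks. Both shares are near the background. CCAATAAG was within 100 bp of 0 of 86 summits, against 0.737% of all pooled regions, and 1 of its 12 copies in the window lay wholly inside a pooled region, against 9.65% of 4020 copies on all arms. No thresholded peak of the complex held the 8-mer CAATCAGA, the GAGA factor motif GAGAGAG or the DREF element TATCGATA in its region on either strand. Over all thresholded peaks the shares were 9.56%, 18.6% and 5.74%, so 0 of 8 is near the background for each. A motif match is a description of these windows and not of binding.

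Genes that act with or around the complex were read in the same way, by the strongest summit within 1000 bp of a start. None of 15 had a thresholded peak, against 4.38% of all protein-coding genes, and 9 had a pooled region, against 57.5%, so both counts are near the background. Of the Hox cofactor genes exd, hth and tsh, only exd had a pooled region, at rank 21687. Among the gap genes, which set the early borders of the Hox domains, hb, gt, kni and tll had pooled regions at ranks between 7014 and 21042 and Kr had none. Of 7 genes regulated by these Hox proteins, Dll, the limb gene that Ubx and abd-A repress in the abdomen, had the strongest region, with a signal of 73.8 at rank 750. It was thus just outside the 732 thresholded peaks, and its replicate ranks were 792, 1220 and 7609. In the visceral mesoderm Ubx activates dpp and abd-A activates wg, and dpp and wg had regions at ranks 8552 and 8314, kn one at rank 22834, and rpr, salm and Con none.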

How the data were processed

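Insensitive-GFP ChIP-seq of 3 replicates was read from 5 deposited dm6 lists. Per the file lists that accompany the samples, the authors called 30000 regions for each replicate and on the pooled alignments, and the thresholded list holds the peaks that passed the irreproducible discovery rate (IDR). The deposited signal is the authors' value per region on an unstated scale, so it was compared within a list only. The labels and lists name no caller, aligner or IDR threshold, and depth is unknown. The thresholded list equalled the 732 highest-signal pooled regions. The pooled list is named as peaks and background for input to IDR. The dm3 lists were not used here.

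Regions were ranked by signal and placed on Ensembl release 115 genes (BDGP 6.54), without transposable elements. Sequences were read from the RefSeq release 6 assembly. An overlap of 1 bp counted, starts were near within 500 bp, and both strands were searched for motifs up to 100 bp from the summit. Python 3.11.15, NumPy 2.4.6 and pandas 2.3.3 were used, and functions were tested on simulated data. With 1 group, no statistical test was made. The text names every thresholded peak of the window, the 12 strongest pooled regions, the 3 strongest of each replicate, regions nearest to the starts and regions with the sites. Members, gene lists, motifs and this rule were chosen with earlier results of these data known.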

Additional observations from a re-analysis of the deposited data

How the results depend on the processing

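Of 27 alternatives for 10 counts and ranks, 22 stayed within 1.5 times the value reported, or for the median rank within the spread between replicates. The 5 that moved further were as follows. With all 30000 regions of each replicate, 18 pooled regions of the complex were found in every replicate, and with starts taken as near within 250 bp, 8 were near one. With 200 bp to each side of the summit 3 regions held CCAATTGG, with the whole region 4 did, and with the whole region 1 held CCAATAAG. These settings count more, or for 250 bp fewer, by their own construction. The 4 regions with CCAATTGG include the overlapping peaks of ranks 34 and 524, which hold the same copy. Leaving out a replicate in turn gave 8 to 9 regions found in all others. The thresholded peaks numbered 7 when summits within 500 bp were counted once and 6 among the 366 thresholded peaks with the highest signal. No paired analysis was possible because there is 1 group. Depth is unknown, so a region missing from a list does not show that binding was absent there.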
